A study of Homo sapiens with 7 samples.

Results

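Genes that mark cardiac fibroblasts were followed in cultures of heart muscle cells grown from stem cells. The 10 genes were chosen by symbol as established markers of the fibroblast lineage: POSTN, DCN, LUM, VIM, PDGFRA, PDGFRB, TCF21, THY1, FAP and SPARC. Earlier results of these data were known when the list was made. All 10 were found among the 60234 genes of the expression table, and all 10 reached a mean of 1 TPM (an abundance corrected for transcript length and scaled to a fixed total per library) over the libraries compared. RNA came from cardiomyocytes differentiated from WTC-11, an established human induced pluripotent stem cell line, with small molecules and kept for 35 days. In both groups an antisense oligonucleotide (ASO), a short synthetic strand complementary to an RNA, was applied passively at 2 uM for 96 h. A scrambled ASO was given in 3 libraries and an ASO against MYH7B in 4. All libraries come from a single line, and the labels do not say whether replicates were separate differentiations, so p-values measure the spread between these libraries, which may be technical.

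Fibroblasts are the main matrix-producing cells of the heart. They derive largely from the epicardium, the outer cell layer of the heart, under the transcription factor TCF21, and are kept and expanded by platelet-derived growth factors acting on the receptors PDGFRA and PDGFRB. Resting fibroblasts make small proteoglycans such as decorin and lumican, and after injury they take on an activated state with periostin and fibroblast activation protein. None of these genes is exclusive to fibroblasts: vimentin and SPARC are made by many mesenchymal cells, and PDGFRB is also the classic receptor of pericytes and smooth muscle. Cardiomyocyte differentiation from stem cells commonly leaves some cells of other heart lineages. In bulk RNA, fewer cells of a type and less RNA per cell cannot be told apart, and that holds for every difference below.

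The labelled cell type was visible in its markers. The summed level of 15 cardiomyocyte genes was 15196 to 16277 TPM with the scrambled ASO and 11932 to 14256 TPM in MYH7B ASO replicates 2 to 4. The target MYH7B lay below every scrambled ASO library in all 4 MYH7B ASO libraries, with 23.0, 36.5 and 25.1 TPM against 1.29, 9.30, 5.65 and 6.31 TPM. Over 6 libraries MYH7B fell by 1.85 on the log2(TPM + 1) scale (limma adjusted p = 0.0109), and with replicate 1 it differed by -2.30 (0.0525). TPM keeps no record of depth, so the depth of each library is unknown. For MYH7B ASO replicate 1 the deposited values are out of row order, and they were put back in order for use as an alternative. That library also stood apart in having 17.2% of its TPM in mitochondrially encoded genes, against 27.4% to 33.6% in the other 6. The main comparison is therefore 3 scrambled ASO libraries against MYH7B ASO replicates 2, 3 and 4, and each marker is also given with replicate 1.

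Of the 10 fibroblast markers, 1 passed the test over all genes: LUM, which fell (limma on log2(TPM + 1), Benjamini-Hochberg adjusted p under 0.05, here referred to as called). The background was 1.66% of 15988 genes called, with 1.48% lower and 0.181% higher. A gene that was not called is not shown to be equal between the groups. The MYH7B ASO libraries lay wholly below the scrambled ASO libraries for 5 markers (LUM, DCN, FAP, SPARC and PDGFRB) and wholly above them for 2 (PDGFRA and TCF21). These are 7 of 10 without overlap, beside 21.2% of all tested genes, where 14.1% lay wholly below and 7.11% wholly above. FAP, among the 7, reached the mean of 1 TPM needed for testing only through the scrambled ASO libraries. THY1, POSTN and VIM overlapped between the groups. With MYH7B ASO replicate 1 included, no marker was called, beside 1.07% of all genes (0.967% lower, 0.107% higher). At an unadjusted p under 0.05 there were then 3 markers, beside 13.5%. Over the 7 libraries only FAP, lower, and TCF21, higher, did not overlap, beside 14.9% of all genes, 10.2% lower and 4.7% higher. At an unadjusted p under 0.05 there were 7 markers over 6 libraries, beside 15.2% of all genes. The median log2 fold change of the 10 markers was -0.67 over 6 libraries, against -0.04 for all genes, and -0.45 over 7 libraries, against -0.05. Of the 10, 6 had an adjusted p-value under 0.05 in the authors' deposited table, with LUM, FAP, SPARC and PDGFRB lower and PDGFRA and TCF21 higher. The background in the authors' deposited table was 8.71% of 15527 genes, 5.69% lower and 3.02% higher. Which libraries entered that comparison is not given in the sources used here.

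**Figure D1:**
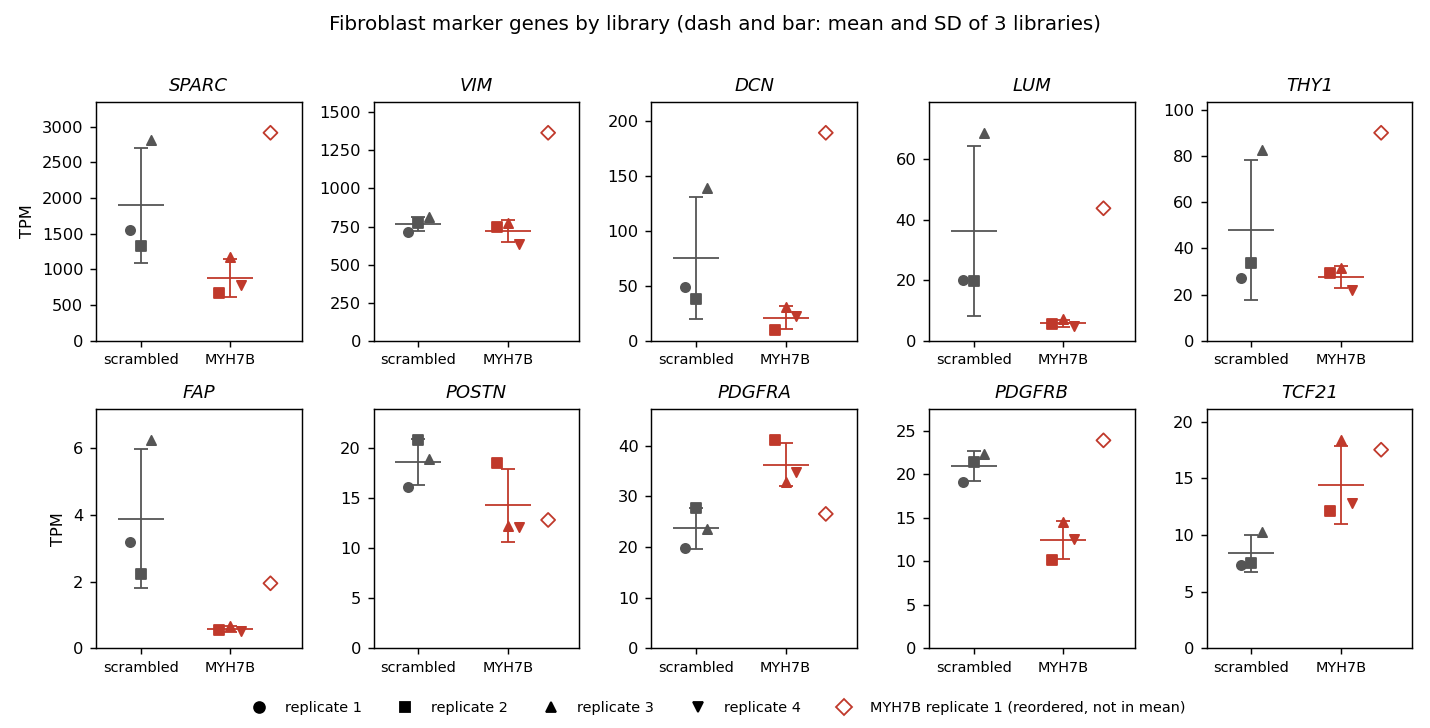
TPM of the 10 fibroblast markers in each library, on linear axes from 0, with the scrambled ASO libraries at left and the MYH7B ASO libraries at right in each panel. Dashes and error bars are the mean and SD of 3 libraries, and the open symbol is MYH7B ASO replicate 1, which is outside the mean. LUM in MYH7B ASO replicates 2 to 4 sits between 4.80 and 7.10 TPM, below all 3 scrambled ASO libraries, while replicate 1 sits at 43.8 TPM.

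Among the matrix proteoglycans, lumican (LUM) had the largest difference of the 10 markers over 6 libraries on the log2(TPM + 1) scale. With a pseudocount of 0.1 FAP was ahead, at -2.44 against -2.38 for LUM, and the fold between the means was also higher for FAP. LUM is a small leucine-rich protein that binds collagen fibrils and regulates their assembly. Its levels were 20.2, 19.9 and 68.8 TPM in scrambled ASO replicates 1 to 3 and 5.49, 7.10 and 4.80 TPM in MYH7B ASO replicates 2 to 4. The groups did not overlap, although scrambled ASO replicate 3 stood far above the other two of its group. The mean went from 36.3 ± 28.2 to 5.80 ± 1.18 TPM (SD, n = 3 each), 6.26-fold lower. LUM changed by -2.22 on the log2(TPM + 1) scale, with a 95% interval from -3.22 to -1.23 (standard error 0.43, limma adjusted p = 0.0489). LUM was still called, at -1.65, when scrambled ASO replicate 3 was left out (limma adjusted p = 0.0217), but the call was lost when any of the other 5 libraries was left out. The reordered library, MYH7B ASO replicate 1, had 43.8 TPM of LUM, inside the scrambled ASO range. With it the difference was -1.54 and was not called (limma adjusted p = 0.391). LUM stood at -1.48 in the authors' deposited table of shrunken log2 fold changes, with an adjusted p-value of 1.72e-07.

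Decorin (DCN), which binds collagen and sequesters growth factors, lies 28652 bp from LUM on chromosome 12 (DCN 91140484 to 91183123, LUM 91102629 to 91111831, GENCODE 29 on GRCh38). It had 48.9, 38.4 and 139 TPM with the scrambled ASO and 10.1, 30.4 and 22.7 TPM in MYH7B ASO replicates 2 to 4. The groups did not overlap, and scrambled ASO replicate 3 was again the highest. The log2 difference was -1.69 (standard error 0.51) and was not called (limma adjusted p = 0.168). DCN in MYH7B ASO replicate 1 was at 189 TPM, the highest of all 7 libraries, and with it the difference was -0.88 (limma adjusted p = 0.672). DCN was at -0.58 in the authors' deposited table (adjusted p-value 0.103). The ratio of LUM to DCN was 0.413, 0.519 and 0.496 in the scrambled ASO libraries and 0.543, 0.234 and 0.212 in MYH7B ASO replicates 2 to 4, so it overlapped between the groups (exact permutation test over 20 splits, 2-sided p = 0.4). The next genes of the same cluster, KERA and EPYC, were at or near 0: KERA was listed at 0 in all 7 libraries, and EPYC had 1.64 TPM in scrambled ASO replicate 1 and was listed at 0 in the others.

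Of 12 other small leucine-rich proteoglycan genes, 8 were expressed highly enough to test and 1 was called, beside 1.66% of all genes. That was BGN, biglycan, with 25.4, 26.4 and 54.6 TPM with the scrambled ASO and 9.63, 12.1 and 8.93 TPM in MYH7B ASO replicates 2 to 4. It fell by 1.62 on the log2 scale (limma adjusted p = 0.0351) and was called in 1 of the 6 fits without 1 library. With MYH7B ASO replicate 1, at 14.3 TPM, BGN changed by -1.51 and stayed called (limma adjusted p = 0.0478). In that library BGN was therefore below every scrambled ASO library while LUM and DCN were not. FMOD, fibromodulin, the most abundant of the list over the 6 libraries together, though just below BGN in the scrambled ASO mean (34.8 against 35.4 TPM), had 26.7, 29.9 and 47.7 TPM against 23.6, 25.6 and 17.9 TPM, a difference of -0.58 that was not called (limma adjusted p = 0.296). The list's median log2 fold change was -0.65.

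SPARC, a secreted calcium-binding protein that acts in collagen processing, was the most abundant marker. It lies on chromosome 5 at 151661096 to 151687165. Its levels were 1552, 1321 and 2816 TPM with the scrambled ASO and 671, 1179 and 786 TPM in MYH7B ASO replicates 2 to 4. The groups did not overlap, with the nearest libraries, scrambled ASO replicate 2 and MYH7B ASO replicate 3, close together. The means were 1896 ± 805 and 879 ± 266 TPM (SD, n = 3 each). The log2 difference was -1.07 (standard error 0.30) and was not called (limma adjusted p = 0.143). SPARC in MYH7B ASO replicate 1 was at 2913 TPM, the highest of the 7 libraries, and with it the difference was -0.63 (limma adjusted p = 0.589). The authors' deposited table listed SPARC at -0.83 (adjusted p-value 8.99e-04).

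Periostin (POSTN), a matricellular protein of activated fibroblasts on chromosome 13 (37562583 to 37598844), overlapped between the groups. It had 16.2, 20.8 and 19.0 TPM with the scrambled ASO and 18.5, 12.3 and 12.1 TPM in MYH7B ASO replicates 2 to 4. MYH7B ASO replicate 2 lay inside the scrambled range, and the other two lay below it. The log2 difference was -0.38 with a 95% interval from -0.84 to 0.09 (limma adjusted p = 0.432). POSTN in MYH7B ASO replicate 1 was at 12.8 TPM, and with it the difference was -0.41 (exact permutation test over 35 splits, 2-sided p = 0.0857, unadjusted for the 10 markers). For POSTN the authors' deposited table gave -0.27 (adjusted p-value 0.448).

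Of 14 related matricellular and SPARC-family genes, 13 were tested and 0 were called in limma, with 8 at an unadjusted p under 0.05, beside 15.2% of all genes. Their median log2 fold change was -0.48. MYH7B ASO replicates 2 to 4 lay wholly below the scrambled ASO libraries for 6 of them (SPARCL1, FSTL1, THBS2, TNC, CCN2 and TGFBI) and wholly above for SMOC1, beside 14.1% of all genes lower and 7.11% higher. These names and the others given for list members that were not called were chosen after their values were seen. SPARCL1 and THBS2, with MYH7B ASO means of 0.885 and 0.906 TPM, passed the filter of 1 TPM only through the scrambled ASO libraries. FSTL1, a secreted SPARC-related glycoprotein and the most abundant of the list, had 367, 306 and 383 TPM against 223, 285 and 246 TPM, a difference of -0.48 that was not called (limma adjusted p = 0.161). SMOC2 overlapped between the groups. The authors' deposited table called SPARCL1, THBS2, TNC, CCN2 and TGFBI lower and SMOC1 higher, of 12 with an adjusted p-value, beside 5.69% of all its genes lower and 3.02% higher. With MYH7B ASO replicate 1, SPARCL1 was still wholly lower and SMOC1 wholly higher, beside 10.2% and 4.7% of all genes. There too SPARCL1 passed the filter only through the scrambled ASO libraries, with a MYH7B ASO mean of 0.977 TPM.

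FAP, a membrane serine protease of activated fibroblasts, was the least abundant marker. It lies on chromosome 2 at 162170684 to 162245151. It had 3.19, 2.23 and 6.22 TPM with the scrambled ASO and 0.542, 0.679 and 0.507 TPM in MYH7B ASO replicates 2 to 4. Every MYH7B ASO library was below every scrambled ASO library, including replicate 1 at 1.95 TPM, which was close to scrambled ASO replicate 2. The means of 3 libraries were 3.88 ± 2.08 and 0.576 ± 0.0905 TPM (SD), 6.74-fold lower. FAP therefore passed the filter of 1 TPM only through the scrambled ASO libraries. That also held with replicate 1, where the MYH7B ASO mean was 0.919 TPM. On the log2(TPM + 1) scale, which understates changes at such low levels, the difference was -1.55 (standard error 0.37, limma adjusted p = 0.0910). With replicate 1 it was -1.32 (limma adjusted p = 0.183; exact permutation test over 35 splits, 2-sided p = 0.0571). FAP was at -0.83 in the authors' deposited table (adjusted p-value 0.00604).

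THY1, a surface glycoprotein long used to isolate fibroblasts, had 27.2, 33.7 and 82.6 TPM with the scrambled ASO and 29.3, 31.4 and 22.1 TPM in MYH7B ASO replicates 2 to 4. The groups overlapped, and scrambled ASO replicate 3 stood above the other 5 libraries. The log2 difference was -0.62 (limma adjusted p = 0.483), and it was -0.14 when that library was left out. THY1 in MYH7B ASO replicate 1 was at 90.1 TPM, the highest of the 7 libraries, and with it the difference was -0.20 (limma adjusted p = 0.889). THY1 lies on chromosome 11 at 119417378 to 119424985, and AP003396.5, an annotated transcript on its opposite strand, had 10.1 to 32.5 TPM in the 6 libraries. Whether the authors' counting used strand is not given in the sources used here, so reads shared by these genes cannot be assigned with certainty.

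The receptors for platelet-derived growth factor differed in opposite directions over the 6 libraries. PDGFRA lies on chromosome 4 at 54229097 to 54298247, and PDGFRB on chromosome 5 at 150113837 to 150155872. PDGFRA, the tyrosine kinase receptor that marks resting cardiac fibroblasts and their progenitors, had 19.8, 27.8 and 23.5 TPM with the scrambled ASO and 41.1, 32.9 and 34.8 TPM in MYH7B ASO replicates 2 to 4. PDGFRB, its relative on mural cells and activated fibroblasts, had 19.1, 21.4 and 22.4 TPM against 10.2, 14.5 and 12.6 TPM. Neither gene overlapped between the groups, and the spread within each group was small. The log2 difference was 0.60 for PDGFRA (standard error 0.17, 95% interval 0.20 to 0.99, limma adjusted p = 0.152). For PDGFRB it was -0.72 (standard error 0.18, 95% interval -1.12 to -0.32, limma adjusted p = 0.0958). Neither was called. With MYH7B ASO replicate 1 the differences were 0.49 for PDGFRA and -0.49 for PDGFRB (limma adjusted p = 0.321 and 0.448). PDGFRA was at 0.61 (adjusted p-value 0.00287) and PDGFRB at -0.60 (0.00581) in the authors' deposited table.

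The ratio of PDGFRA to PDGFRB was 1.04, 1.30 and 1.05 in the scrambled ASO libraries, so the receptors were near parity there. In MYH7B ASO replicates 2 to 4 it was 4.03, 2.27 and 2.77, above every scrambled ASO library. The mean ratio was 1.13 ± 0.147 against 3.02 ± 0.907 (SD, n = 3 each), a difference of 1.39 in the mean log2 ratio. The exact permutation test over 20 splits gave a 2-sided p of 0.1, the smallest that 3 against 3 libraries allow. MYH7B ASO replicate 1 had 26.5 TPM of PDGFRA and 23.9 TPM of PDGFRB, a ratio of 1.11, inside the scrambled ASO range. With it the difference was 1.03 (exact permutation test over 35 splits, 2-sided p = 0.0857). This ratio and that of LUM to DCN were chosen after the values were seen.

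**Figure D2:**
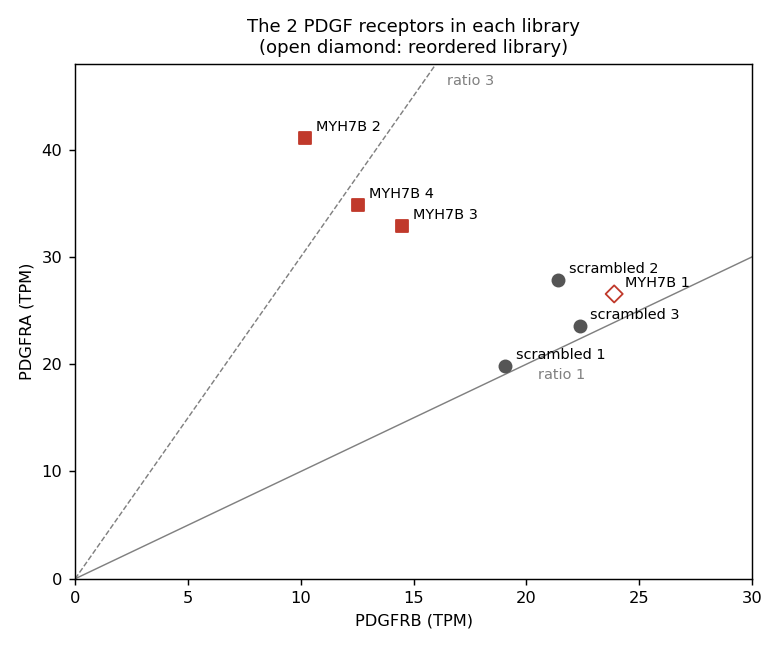
PDGFRA (vertical) against PDGFRB (horizontal), both in TPM on linear axes, with 1 point per library and lines at ratios of 1 and 3. The scrambled ASO libraries and MYH7B ASO replicate 1 lie near the line of equal levels, with ratios from 1.04 to 1.30, and MYH7B ASO replicates 2 to 4 lie at ratios of 2.27 to 4.03.

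RefSeq promoter entries on GRCh38.p14 were matched for 6 of the 10 markers (POSTN, VIM, PDGFRA, PDGFRB, TCF21 and SPARC). Shown here is the stretch before the start site, 5′ to 3′ on the gene's own strand, for markers whose 6 libraries did not overlap. Each window also has at least 200 bases outside the exons of the 10 markers and outside annotated untranslated regions of any gene. Other exons, such as those of noncoding genes, were not checked. The set holds both receptors and TCF21. PDGFRA is shown at the second of its start sites, chr4:54233710-54233959 on the plus strand. PDGFRB is chr5:150155873-150156095 on the minus strand, and TCF21 is chr6:133888863-133889112 on the plus strand. Capitals mark the GC box letters GGGCGG or, for the other strand, CCGCCC.
PDGFRA: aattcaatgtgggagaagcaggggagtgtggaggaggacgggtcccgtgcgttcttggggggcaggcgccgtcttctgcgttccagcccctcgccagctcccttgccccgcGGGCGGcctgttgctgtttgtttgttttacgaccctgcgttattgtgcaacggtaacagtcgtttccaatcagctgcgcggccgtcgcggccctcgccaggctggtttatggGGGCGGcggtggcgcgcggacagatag
PDGFRB: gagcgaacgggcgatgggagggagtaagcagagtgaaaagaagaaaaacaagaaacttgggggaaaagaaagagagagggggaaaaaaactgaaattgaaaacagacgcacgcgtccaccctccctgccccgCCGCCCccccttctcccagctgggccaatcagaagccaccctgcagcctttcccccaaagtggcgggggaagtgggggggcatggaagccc
TCF21: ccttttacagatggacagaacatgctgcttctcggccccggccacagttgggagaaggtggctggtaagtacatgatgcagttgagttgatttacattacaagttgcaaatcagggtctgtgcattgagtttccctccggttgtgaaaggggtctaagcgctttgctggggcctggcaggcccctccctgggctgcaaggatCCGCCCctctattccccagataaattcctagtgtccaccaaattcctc
All 3 hold a GC box, as do 42.6% of 35116 RefSeq windows of 250 bases, so the markers that were higher and the marker that was lower share it. The other motifs searched on both strands were the TEAD core GGAATG, in 11.9% of all windows, the AP-1 site TGANTCA, in 6.57%, and the TATA box TATAAA, in 10.7%. None of those 3 was found in the stretches shown. Windows of markers without overlap that were left out held an AP-1 site at the first PDGFRA start and a TEAD core at SPARC. Those windows had fewer than 200 bases outside exons and untranslated regions. A match is a description of letters and not a binding site.

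Of 15 PDGF ligands and signalling genes, all were tested and 0 were called in limma, with 4 at an unadjusted p under 0.05, beside 15.2% of all genes, and a median log2 fold change of -0.02. The ligand PDGFA, which acts on PDGFRA, had 30.9, 26.5 and 33.3 TPM with the scrambled ASO and 38.2, 36.9 and 30.1 TPM in MYH7B ASO replicates 2 to 4, and overlapped. The adaptor GRB2 had 30.4, 36.4 and 35.2 TPM against 48.2, 39.0 and 39.7 TPM, a difference of 0.30 (limma adjusted p = 0.391). The ligand PDGFC had 30.1, 17.8 and 28.5 TPM against 9.46, 15.0 and 10.7 TPM, a difference of -1.05 (limma adjusted p = 0.0881). MYH7B ASO replicate 1 had 19.7 TPM of PDGFC, which overlaps the scrambled ASO range. The authors' deposited table listed PDGFC at -0.85 (adjusted p-value 9.48e-04). That table called 3 of these 15 genes lower and 0 higher, beside 5.69% and 3.02% of all its genes. Over the 6 libraries 3 of the 15 lay wholly below the scrambled ASO libraries and 3 wholly above, beside 14.1% and 7.11% of all genes.

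TCF21, the transcription factor of the epicardium and of fibroblast precursors, was higher in every MYH7B ASO library than in any scrambled ASO library. It had 7.40, 7.53 and 10.3 TPM with the scrambled ASO and 12.1, 18.4 and 12.8 TPM in MYH7B ASO replicates 2 to 4, and replicate 1 had 17.5 TPM. The log2 difference was 0.71 over 6 libraries (standard error 0.21, limma adjusted p = 0.168). Over 7 libraries it was 0.78 (limma adjusted p = 0.154). The exact permutation test over 35 splits gave a 2-sided p of 0.0286, the smallest possible, unadjusted for the 10 markers. For TCF21 the authors' deposited table gave 0.72 (adjusted p-value 0.00270). TCF21 lies on chromosome 6 at 133889138 to 133895553, and the antisense gene TARID, which overlaps it, had 0 to 4.80 TPM in the 6 libraries.

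Epicardial genes, the lineage that TCF21 also marks, were compared in a list of 11, of which 10 were tested. None was called in limma, with 1 at an unadjusted p under 0.05, beside 15.2% of all genes, and the median log2 fold change was -0.14. The most abundant, KRT19, a keratin, had 372, 492 and 494 TPM with the scrambled ASO and 534, 566 and 575 TPM in MYH7B ASO replicates 2 to 4 (log2 difference 0.31, limma adjusted p = 0.340). ALDH1A2, the retinoic acid enzyme of the epicardium, had 178, 146 and 175 TPM against 102, 175 and 136 TPM and overlapped. UPK1B was the other gene whose groups did not overlap, with 3.92, 3.57 and 6.51 TPM against 7.99, 9.13 and 11.04 TPM (log2 difference 0.90, limma adjusted p = 0.126). Of the 10 tested, 2 were thus wholly higher and 0 wholly lower, beside 7.11% and 14.1% of all genes. UPK1B was called higher in the authors' deposited table, at 0.74 (adjusted p-value 0.0285). That table called 1 of 10 epicardial genes higher and 0 lower, beside 3.02% and 5.69% of all its genes.

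Vimentin (VIM), the intermediate filament of mesenchymal cells on chromosome 10 (17228259 to 17237593), had the smallest difference of the 10 markers. It had 717, 773 and 812 TPM with the scrambled ASO and 749, 774 and 635 TPM in MYH7B ASO replicates 2 to 4. The means were 767 ± 47.7 and 719 ± 74.1 TPM (SD, n = 3 each), and the log2 difference was -0.10 with a 95% interval from -0.38 to 0.19 (limma adjusted p = 0.756). VIM in MYH7B ASO replicate 1 was at 1365 TPM, far above the other 6, and with it the sign turned, to 0.14 (limma adjusted p = 0.835). VIM was at -0.03 in the authors' deposited table (adjusted p-value 0.935). Of 9 other intermediate filament genes, 0 were called in limma, 2 had an unadjusted p under 0.05, beside 15.2% of all genes, and the median log2 fold change was 0.02. The most abundant were KRT8 and KRT18, the simple epithelial keratins, with differences of 0.27 and 0.08 (limma adjusted p = 0.345 and 0.834).

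**Figure D3:**
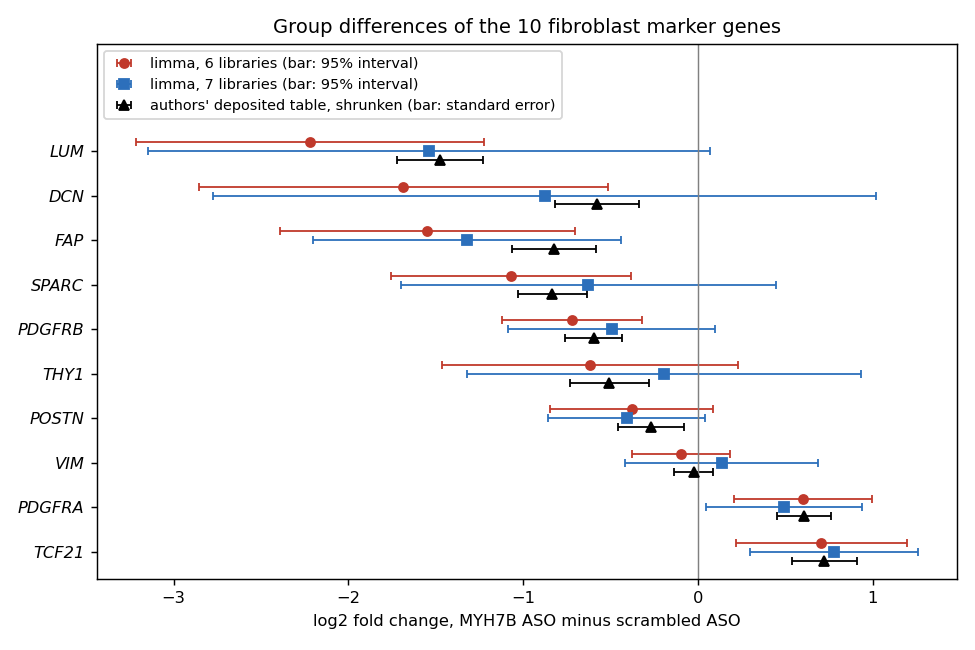
Log2 fold change of each marker, MYH7B ASO minus scrambled ASO on log2(TPM + 1), over 6 libraries with its 95% interval, over 7 libraries, and as the shrunken value of the authors' deposited table with its standard error. PDGFRA and TCF21 lie above 0 in all 3, and the values with replicate 1 lie nearer 0 than those of 6 libraries for LUM (-1.54 against -2.22), DCN and SPARC.

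Levels per transcript length placed SPARC first in the scrambled ASO libraries, followed by VIM at 767 TPM and DCN at 75.3 TPM. SPARC and VIM each lay wholly above the next gene in order. From DCN through THY1, LUM, PDGFRA, PDGFRB and POSTN, each gene's range overlapped that of the next in order. TCF21 and FAP then stood apart at 8.40 and 3.88 TPM. The sum over the 10 markers was 2431, 2266 and 3999 TPM with the scrambled ASO, 1548, 2100 and 1543 TPM in MYH7B ASO replicates 2 to 4 and 4683 TPM in replicate 1. SPARC and VIM made up 90.7% to 93.3% of that sum in each library. The sum of the other 8 was 162, 172 and 371 TPM with the scrambled ASO, 127, 148 and 122 TPM in MYH7B ASO replicates 2 to 4 and 406 TPM in replicate 1.

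The markers differed in how much they varied among the scrambled ASO libraries alone. The highest library exceeded the lowest 3.62-fold for DCN, 3.45-fold for LUM, 3.04-fold for THY1, 2.79-fold for FAP and 2.13-fold for SPARC. For PDGFRA, TCF21, POSTN, PDGFRB and VIM the factor was 1.41, 1.39, 1.29, 1.17 and 1.13. Scrambled ASO replicate 3 was the highest of its group for 8 of the 10 markers, all but PDGFRA and POSTN. MYH7B ASO replicate 1 was the highest of its group for 7 of the 10 and the highest of all 7 libraries for 5 (DCN, SPARC, THY1, PDGFRB and VIM). The part of these 2 libraries in the differences was not tested beyond leaving each out. Without scrambled ASO replicate 3 and without replicate 1, the log2 differences were -1.13 for DCN and -0.75 for SPARC, against -1.69 and -1.07 with all 6.

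**Figure D4:**
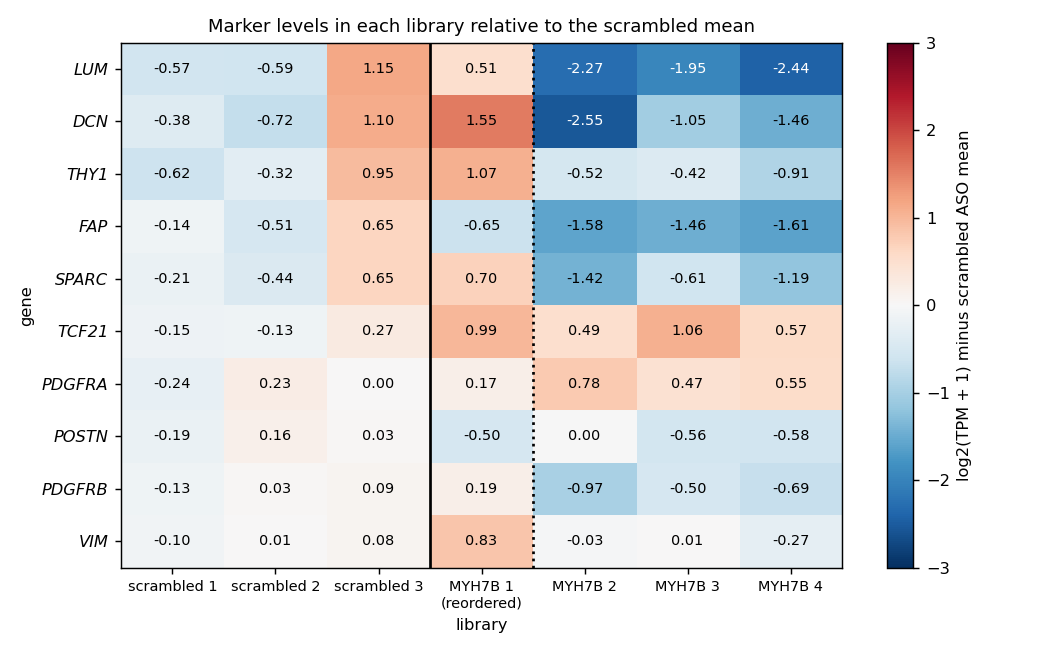
Heat map of log2(TPM + 1) minus the mean of the 3 scrambled ASO libraries for each marker (rows) and library (columns). Scrambled ASO replicate 3 and MYH7B ASO replicate 1 are high for LUM, DCN, THY1 and SPARC, whereas TCF21 is above the scrambled ASO mean in all 4 MYH7B ASO libraries.

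The wider set of 40 fibroblast and matrix genes that are not among the 10 markers had 36 tested and 4 called, all lower, beside 1.66% of all genes called. Their median log2 fold change was -0.29. FN1, fibronectin, fell the most, from 600, 481 and 1020 TPM to 125, 154 and 121 TPM (log2 change -2.32, limma adjusted p = 0.00609), and it was called when any of the 6 libraries was left out. ELN, elastin, fell by 1.63 on the log2 scale and COL1A2, a chain of type I collagen, by 1.38 (limma adjusted p = 0.0160 and 0.0343). PRRX1, a mesenchymal transcription factor, had 21.9, 20.8 and 23.2 TPM with the scrambled ASO and 8.16, 10.1 and 8.90 TPM in MYH7B ASO replicates 2 to 4 (log2 change -1.20, limma adjusted p = 0.0110). The most abundant genes, COL1A1 and COL3A1, had differences of -1.05 and -0.98 and were not called (limma adjusted p = 0.0730 and 0.148). With 1 of the 6 libraries left out in turn, PRRX1 was called in 5 fits of 6, and ELN and COL1A2 in 1 each. With MYH7B ASO replicate 1 included, FN1, ELN and PRRX1 stayed called (limma adjusted p = 0.0352, 0.0132 and 0.0112) and COL1A2 was not (0.207). In that library FN1 had 304 TPM, ELN 4.80 TPM and PRRX1 8.64 TPM, each below every scrambled ASO library. Of the 36 genes, 10 lay wholly below the scrambled ASO libraries over 6 libraries and 2, TWIST1 and SERPINF1, wholly above, beside 14.1% and 7.11% of all genes. The authors' deposited table called 11 of 36 lower and 1, SERPINF1, higher, beside 5.69% and 3.02% of all its genes.

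Markers of other cells that such cultures can hold were measured in the same libraries. The share of all genes called was 1.66%, with 1.48% lower. Of 10 smooth muscle genes 2 were called lower, MYH11 (-2.41, limma adjusted p = 0.00599), its myosin heavy chain, and ACTG2 (-2.02, limma adjusted p = 0.0173), an actin, and their summed level was 1180 to 1633 TPM against 756 to 982 TPM. The abundant ACTA2 and CNN1 were not called, at -0.91 and 0.24 (limma adjusted p = 0.0910 and 0.454). TAGLN, an actin-binding protein of smooth muscle, averaged 273 TPM with the scrambled ASO, above CNN1 at 182 TPM, and differed by -1.24 without being called (limma adjusted p = 0.0649). TAGLN was called lower in the authors' deposited table (adjusted p-value 1.26e-06), as was ACTA2 (0.00463). That table called 5 of the 10 smooth muscle genes lower and 1 higher, beside 5.69% and 3.02% of all its genes. Of the 10 smooth muscle genes, 7 lay wholly below the scrambled ASO libraries and 1 wholly above, beside 14.1% and 7.11% of all genes. Of 15 cardiomyocyte genes 2 were called lower, MYL2 (-1.96, limma adjusted p = 0.0121), the ventricular light chain, and ACTC1 (-0.66, limma adjusted p = 0.0209), cardiac actin. Of the 15, 7 lay wholly below the scrambled ASO libraries and 1 wholly above, beside the same shares of all genes. At an unadjusted p under 0.05 in limma there were 8, beside 15.2% of all genes. The median log2 fold change was -0.66 for the smooth muscle genes and -0.39 for the cardiomyocyte genes. MYH11 was called in all 6 fits without 1 library, MYL2 in 5, ACTG2 in 2 and ACTC1 in 0. With MYH7B ASO replicate 1, MYH11, ACTG2 and MYL2 stayed called (limma adjusted p = 0.00490, 0.0349 and 0.0106) and ACTC1 was not (0.261). MYL7, the atrial light chain, was not called, at -0.33 (limma adjusted p = 0.296). In MYH7B ASO replicate 1 the cardiomyocyte sum was 9407 TPM, the lowest of the 7. Pericyte genes, of which 6 of 8 were tested, summed to 99.0 to 117 TPM against 80.9 to 108 TPM, and 218 TPM in replicate 1. None of these was called, and RGS5 and NOTCH3 overlapped between the groups. The part of these cells in the differences of the fibroblast markers was not tested.

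Endothelial genes summed to 37.7 to 49.6 TPM against 37.4 to 57.5 TPM, and the defining PECAM1, CDH5 and VWF reached at most 1.12 TPM in any library. Of the 11, 3 were tested and 0 were called in limma, with 1, TEK, at an unadjusted p under 0.05, beside 15.2% of all genes. EGFL7 and KDR were the most abundant over the 6 libraries together and overlapped between the groups. TEK, the angiopoietin receptor, was above KDR in the scrambled ASO mean (10.6 against 7.87 TPM). It had 11.4, 8.08 and 12.2 TPM with the scrambled ASO and 3.23, 6.86 and 3.73 TPM in MYH7B ASO replicates 2 to 4 (log2 difference -1.08, limma adjusted p = 0.111). TEK was thus wholly lower, as were 14.1% of all genes. The authors' deposited table gave TEK an adjusted p-value of 0.00346, at -0.84. MYH7B ASO replicate 1 had 8.84 TPM of TEK, inside the scrambled ASO range. Macrophage genes summed to 2.51 to 6.82 TPM against 1.47 to 4.10 TPM, with PTPRC and TYROBP listed at 0 in all libraries, and LYZ and CD68 the most abundant. Pluripotency genes, led by POU5F1 and TDGF1, summed to 5.94 to 9.08 TPM against 5.32 to 8.16 TPM. Endoderm genes summed to 5.05 to 6.54 TPM against 10.6 to 16.0 TPM, most of it APOA1, while ALB was at 0 to 1.01 TPM. Of these 8 genes only APOA1 was tested, and it differed by 1.06 without being called (limma adjusted p = 0.0706). APOA1 was wholly higher, as were 7.11% of all genes. The authors' deposited table gave APOA1 0.93 (adjusted p-value 0.00103) and called 3.02% of all its genes higher. Of the 10 proliferation genes none was called, and the abundant CCNB1 and CDK1 differed by -0.40 and -0.14 (limma adjusted p = 0.352 and 0.727).

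**Figure D5:**
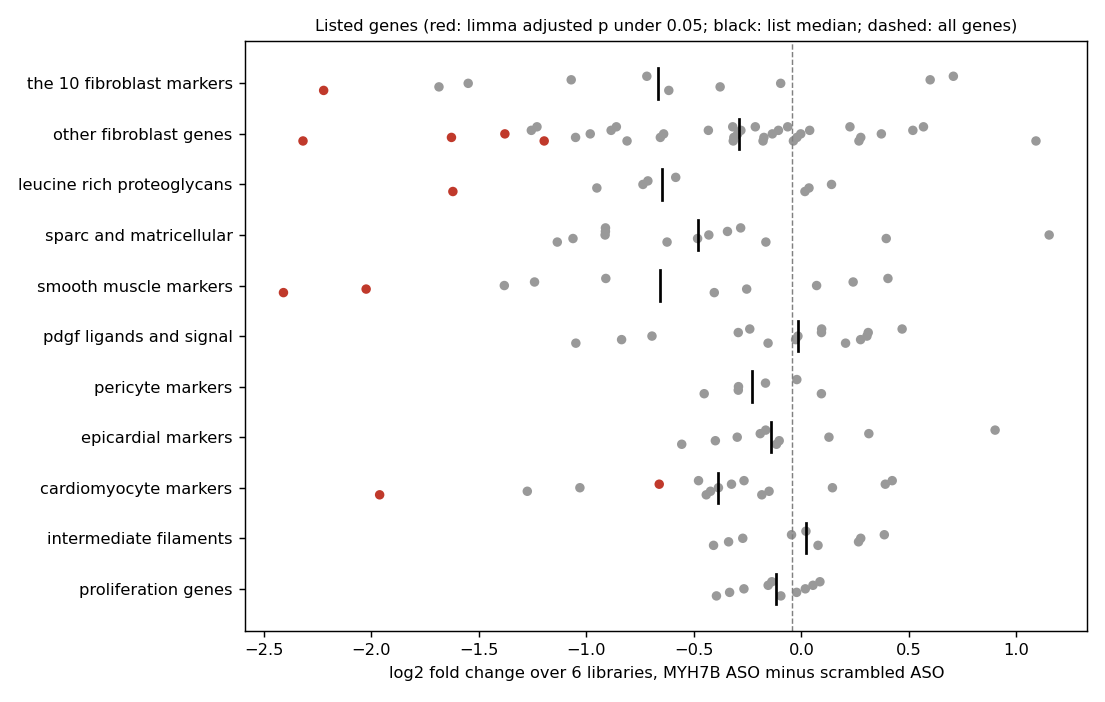
Log2 fold changes over 6 libraries of the tested genes in each list, MYH7B ASO minus scrambled ASO, with 1 point per gene, called genes in red, the list median as a black bar and the median of all genes dashed. The 10 markers have a median of -0.67, the smooth muscle genes -0.66 and the cardiomyocyte genes -0.39. The other fibroblast genes have a median of -0.29 and the epicardial genes -0.14.

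Over the 6 libraries, the genes whose profile was most like the mean of the 10 standardised markers were ANAPC4, SPIDR, FMOD, RBL2 and SLC1A3, with Pearson r from 0.990 to 0.994. These profiles follow scrambled ASO replicate 3: SPIDR, for example, had 11.5, 13.7 and 33.9 TPM with the scrambled ASO and 7.53, 12.03 and 5.87 TPM in MYH7B ASO replicates 2 to 4. The genes most like POSTN alone were HSPB2, AL109615.4, TRDMT1, PKP2 and HHAT, with r from 0.983 to 0.994. HSPB2 had 20.2, 28.8 and 24.3 TPM with the scrambled ASO and 24.7, 12.04 and 10.9 TPM in MYH7B ASO replicates 2 to 4. Each was picked from all tested genes as the best match over 6 points that share their libraries, so these values describe likeness only.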

How the data were processed

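Polyadenylated RNA was sequenced from 3 scrambled ASO and 4 MYH7B ASO libraries, after Trizol extraction per the labels' protocols. The expression table deposited by the authors holds TPM per gene. The authors' deposited comparison table holds a mean normalized signal per gene, a shrunken log2 fold change, its standard error, a score from the test, and p-values, raw and adjusted. DESeq2 and the build GRCh38.p13 are named in the submitters' processing notes. The aligner, quantifier and strand setting are not given in the sources used here. TPM keeps no depth, so precision rests on the spread between libraries. Because TPM is a share of each library, a change in mitochondrial or other abundant RNA shifts all other values.

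The column of MYH7B ASO replicate 1 filled only its first 58721 positions, the number of genes in GENCODE 29. Its median Pearson correlation with the other libraries, across genes, was 0.408 as deposited and 0.955 after sorted GENCODE 29 identifiers were assigned in turn. The reordered column was used as an alternative only.

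Genes averaging 1 TPM or more were tested with limma 3.58.1 (trended eBayes) in R 4.3.3 on log2(TPM + 1), over scrambled ASO replicates 1 to 3 and MYH7B ASO replicates 2 to 4, with Benjamini-Hochberg adjustment over all genes. That called 265 of 15988 genes, 29 higher and 236 lower (10.9% higher), or 58 higher and 213 lower (21.4% higher) with median-ratio rescaling and 55 and 203 (21.3% higher) with quantile normalization. The fit was tested on simulated data. Exact permutation tests used the absolute difference of mean log2 values. Python 3.11.15 with pandas 2.3.3, numpy 2.4.6, scipy 1.17.1 and matplotlib 3.10.9 made the tables and plots. Positions are GENCODE 29 on GRCh38.

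The 10 markers and the other gene lists were chosen with earlier results of these data known. By rule, the text names all markers, MYH7B, up to 6 called and the 2 most abundant genes of each list, and the 5 genes most like the markers' mean profile and POSTN. It also names list members outside this rule, such as PDGFC, UPK1B, TAGLN and TEK, chosen after their values were seen. Alternatives were pseudocounts of 0.1 and 5, filters of 5 TPM or none, median-ratio or quantile scaling, removal of mitochondrially encoded genes, eBayes without trend, replicate blocks, leaving out each library, and adding replicate 1.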

Additional observations from a re-analysis of the deposited data

Results flagged for a closer look

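The 4 MYH7B ASO libraries were searched, in 12 measures, for 1 library lying apart from the other 3: the 10 markers, their sum and the ratio of PDGFRA to PDGFRB. A gap to the nearest library of more than 0.829 of the group's range was found in 5 of them. For 1 measure alone chance gives about 1 in 20. The 12 measures come from the same 4 libraries and are not independent, so the 5 cannot be set against that rate. In 4 of the 5 the library was MYH7B ASO replicate 1. It had 189 TPM of DCN, against 10.1 to 30.4 TPM in the others, and 43.8 TPM of LUM, against 4.80 to 7.10 TPM. It had 90.1 TPM of THY1, against 22.1 to 31.4 TPM, and 1.95 TPM of FAP, against 0.507 to 0.679 TPM. For POSTN the library was MYH7B ASO replicate 2, with 18.5 TPM against 12.1 to 12.8 TPM in the others.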

How the results depend on the processing

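DCN, FAP, SPARC, PDGFRA, PDGFRB, TCF21 and POSTN kept their direction and stayed uncalled under all alternatives that gave a value, which were 20 for FAP and 21 for the others. LUM, called in the main comparison, kept its direction in all 21 and its call in 5. It was not called with a pseudocount of 5 (-1.74, limma adjusted p = 0.0936), without a filter on low values (-2.22, 0.217), with quantile normalization (-2.11, 0.0526), with eBayes without trend (-2.22, 0.108) or with MYH7B ASO replicate 1 (-1.54, 0.391). Leaving out each library gave -2.51 to -1.65. The alternatives that add replicate 1 and leave out a scrambled ASO library or add a block were chosen after seeing the data. With replicate 1 included, LUM was -1.82, -1.83 and -0.96 without scrambled ASO replicates 1, 2 and 3, and not called. VIM turned positive with replicate 1 (0.14), and was 0.088, 0.14 and 0.18 when scrambled ASO replicate 1, 2 or 3 was also left out. THY1 turned positive, to 0.28, with replicate 1 and without scrambled ASO replicate 3. MYH7B kept its direction throughout and was not called without a filter (-1.85, limma adjusted p = 0.0779), with replicate 1 (-2.30) or without MYH7B ASO replicate 4 (-1.79), and was -2.43, -2.10 and -2.36 with replicate 1 and without scrambled ASO replicate 1, 2 or 3. Leaving out a library of the 6 gave MYH7B -2.04 to -1.66.

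The number of markers called was 0 in each setting where LUM was not called, and 0 to 1 when each library was left out. The count over all genes was 40 without a filter, 150 without trend, 170 with replicate 1, 53 to 149 when each library was left out, and 37, 46 and 42 with replicate 1 and without scrambled ASO replicate 1, 2 or 3. Of the other fibroblast genes, 8 were called with a minimum mean of 5 TPM, beside 310 of all 10386 genes tested there. With quantile normalization 7 were called, beside 258 of 15988, and without a filter 1, beside 40 of 32966. When each library was left out 1 to 3 were called, beside 53 to 149 of all genes. With replicate 1 and without scrambled ASO replicate 1, 2 or 3 they were 1, 0 and 0, beside 37, 46 and 42. The summed TPM of the markers differed by -1168 between the group means, by -618 without scrambled ASO replicate 3, by -430 with replicate 1, and by 120 with replicate 1 and without scrambled ASO replicate 3. The cause of these changes was not tested, except that fewer libraries enter the fits that leave one out and more genes are adjusted for without a filter.

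Whether replicate numbers shared by both groups pair the libraries was not settled. Over 6 libraries, deviations from group means had an average correlation of 0.093 for equal title numbers and -0.027 for unequal ones. For description numbers it was -0.056 for equal and 0.016 for unequal ones. Few libraries share a number, so these averages can neither show nor exclude pairing. The blocks also leave few libraries to estimate the spread from, so a count of 0 called does not bear on pairing. With the replicate block by title number 0 genes were called in limma, with 1718 at an unadjusted p under 0.05. With the block by description number 0 were called, with 1096 at an unadjusted p under 0.05. Under these blocks LUM was -2.40 and -2.48, MYH7B -1.92 and -2.17, and 0 markers and 0 other fibroblast genes were called. With replicate 1 and the title block LUM was -1.24, MYH7B -2.41, VIM 0.27 and THY1 0.044, and 0 genes were called, with 1773 at an unadjusted p under 0.05.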
